A study of Rattus norvegicus with 24 samples.

Results

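Livers of neonatal rats given desisobutyryl ciclesonide were compared with livers of neonatal rats given dexamethasone. The comparison holds 8 of the 24 RNA-seq libraries of the series, 4 per drug, chosen by the tissue and drug in the sample titles. All pups were wild-type Sprague Dawley rats nursed by their mothers. They received 5 subcutaneous injections, 1 a day from postnatal day 1, and the whole liver was taken on postnatal day 6, 24 hours after the last injection. Dexamethasone was given at 0.1 mg/kg and desisobutyryl ciclesonide at 1.25 mg/kg. A further 4 liver libraries came from pups given the vehicle, 2.5% ethanol. The remaining 12 libraries are lungs under the same treatments. The doses differed, so every difference below is between a drug at its dose and the other drug at its own, and drug and dose cannot be told apart. The labels name no litters and do not give the sex of the pups, and p-values measure the spread between these libraries.

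Both compounds are synthetic glucocorticoids. They bind the glucocorticoid receptor, a transcription factor that moves to the nucleus when it holds a ligand and raises or lowers the transcription of its target genes. In liver, glucocorticoids are known for inducing gluconeogenesis and amino acid breakdown and for speeding the shift from the fetal blood-forming organ to the metabolic organ of the adult. Dexamethasone carries a fluorine atom and a methyl group on the steroid rings. Desisobutyryl ciclesonide carries no fluorine and has a cyclic acetal with a cyclohexyl ring. It is the active form into which esterases convert ciclesonide, an inhaled drug.

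The 8 libraries held 15397992 to 26194384 gene counts and between 15958 and 17080 genes with at least 1 count. The files list genes by Ensembl identifier without names, and 0 of the 30560 identifiers could be matched to a symbol here, so genes are given by identifier and the pathway and cell type lists drawn up for this comparison could not be applied. For the same reason the liver label was not checked against hepatocyte markers. The deposited file names number the desisobutyryl ciclesonide libraries in a series of their own, with the letter B in place of the D of the others, so library series and drug coincide. Reads that aligned outside any gene took 6.70% to 8.10% of the entries of the desisobutyryl ciclesonide livers and 11.2% to 11.8% of those of the dexamethasone livers, and unaligned reads took 0.801% to 1.40% and 1.88% to 2.41%. Neither range overlapped, and the part of these read categories in the differences below was not tested.

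A large share of the liver transcriptome differed between the drugs. Of 13734 genes tested, 6358 (46.3%) passed the threshold of an adjusted p under 0.05 in edgeR's quasi-likelihood test. With desisobutyryl ciclesonide 3273 genes (23.8%) stood higher than with dexamethasone and 3085 (22.5%) stood lower. The genes that stood higher had a median log2 difference of 1.10, with the middle 50% of them between 0.69 and 1.84. The genes that stood lower had a median of -0.87, with the middle 50% between -1.44 and -0.58. Larger differences were more often in the higher direction. At least 4-fold separated the drugs for 698 higher and 444 lower genes, and at least 16-fold for 95 and 68. Tested against a difference of 2-fold in place of 0, 1387 genes passed (10.1%), 833 higher (6.07%) and 554 lower (4.03%). The log2 CPM, gene counts scaled to a common library size, of the 4 libraries of one drug lay entirely above or below those of the other in 5718 genes (41.6%). The split of the 6358 calls, 51.5% of them higher, rests on the scaling. With total gene counts and no scaling factors 67.3% were higher, and the median log2 difference over all genes tested moved from 0.00 to 0.19.

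The genes that differed held much of the RNA, and they were also 46.3% of the genes tested. The 7376 genes not called took 48.5% ± 0.799 (SD, n = 4) of the gene counts with desisobutyryl ciclesonide. They took 44.2% ± 2.38 (SD, n = 4) with dexamethasone and 47.0% ± 0.941 (SD, n = 4) with vehicle. The genes that stood higher with desisobutyryl ciclesonide took 27.8%, 27.8%, 28.01% and 23.97% of the gene counts of its replicates 1 to 4, against 8.09% to 11.7% in the dexamethasone libraries. The group means were 26.9% ± 1.94 (SD, n = 4) and 10.3% ± 1.55 (SD, n = 4). These genes took 28.1% ± 1.69 (SD, n = 4) in the vehicle livers. The genes that stood lower took 24.5% ± 1.41 (SD, n = 4) with desisobutyryl ciclesonide and 45.4% ± 3.82 (SD, n = 4) with dexamethasone, and 24.8% ± 0.864 (SD, n = 4) with vehicle. The lowest dexamethasone library, at 43.1%, lay far above the highest desisobutyryl ciclesonide library, at 26.5%. The shares choose their own genes between the drug groups and are given as a description. The vehicle libraries entered that choice only through the shared estimate of the spread, the filter on low counts and the scaling factors. For the higher and for the lower genes the vehicle range overlapped that of the desisobutyryl ciclesonide libraries.

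**Figure D1:**
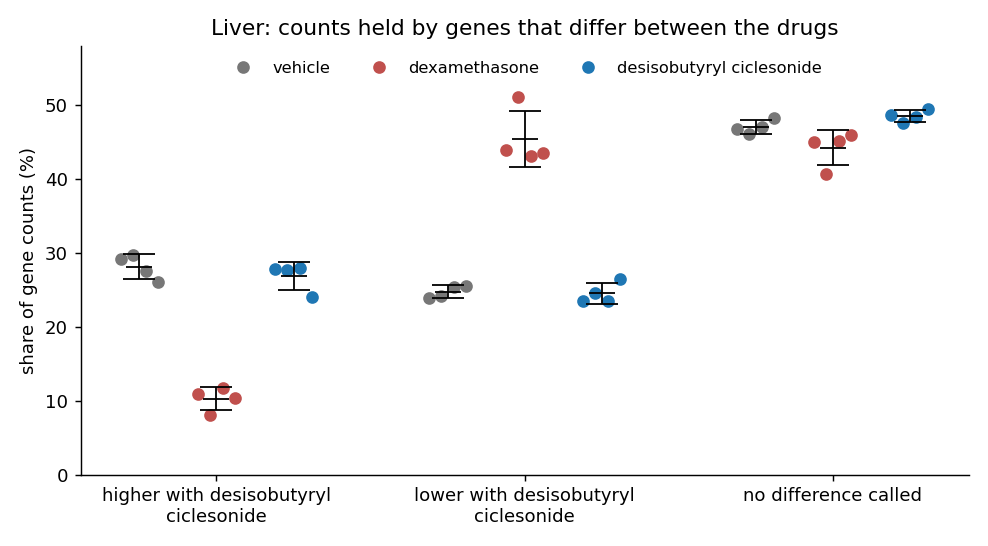
Share of gene counts (%, vertical axis) taken in each of the 12 liver libraries by the genes called higher with desisobutyryl ciclesonide than with dexamethasone, by those called lower and by the rest. Points are libraries, bars the mean and SD of 4. Vehicle and desisobutyryl ciclesonide libraries lie at similar heights in the first 2 sets, while the dexamethasone libraries lie lower (8.09% to 11.7%) in the first and higher (43.1% to 51.1%) in the second.

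For most genes that differed between the drugs, the vehicle livers stood near the desisobutyryl ciclesonide livers. The vehicle mean of each gene was placed on a scale on which 0 is the dexamethasone mean and 1 the desisobutyryl ciclesonide mean of log2 CPM. The median place was 0.95 for the 3273 higher genes and 0.94 for the 3085 lower genes. Vehicle stood on the desisobutyryl ciclesonide side of the midpoint in 87.0% of the higher genes and 82.5% of the lower genes. It lay between the drugs but nearer dexamethasone in 780 of the 6358 genes, and beyond dexamethasone in 185. In 2763 genes it lay beyond desisobutyryl ciclesonide. Against vehicle itself, dexamethasone was called in 6522 genes (47.5%), 3096 higher (22.5%) and 3426 lower (24.9%). Desisobutyryl ciclesonide was called in 621 (4.52%), 287 higher (2.09%) and 334 lower (2.43%). These 2 comparisons share the vehicle libraries and their lists are not compared here. The count for desisobutyryl ciclesonide moved with single libraries and with the tool. It was 358, 295 and 374 without vehicle replicates 2, 3 and 4, and 409, 379 and 322 without desisobutyryl ciclesonide replicates 2, 3 and 4. It was 836 without dexamethasone replicate 2 and 1154 with DESeq2.

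**Figure D2:**
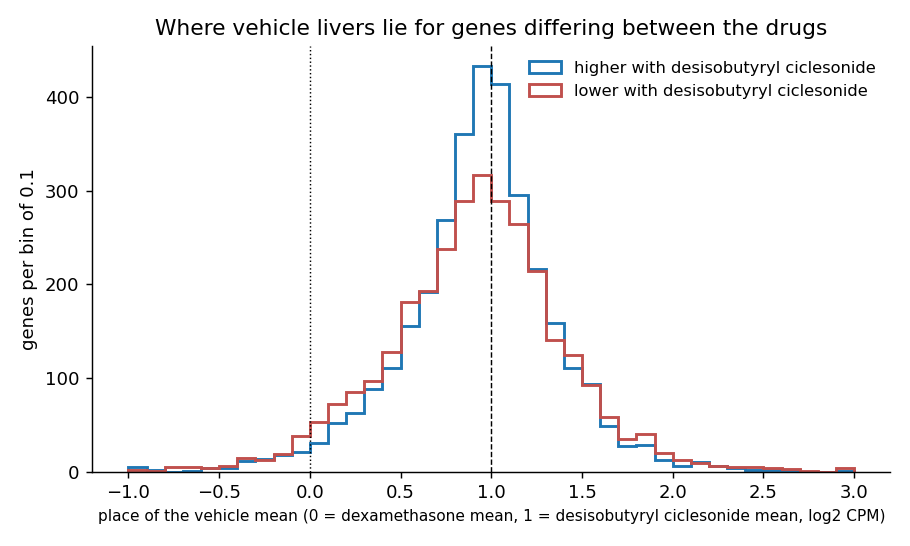
Place of the vehicle mean for the genes that differ between the drugs (horizontal axis, 0 is the dexamethasone mean and 1 the desisobutyryl ciclesonide mean of log2 CPM), as genes per bin of 0.1. Both the higher and the lower genes peak close to 1, with medians of 0.95 and 0.94. The 7 genes outside the axis are drawn at its ends.

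Single livers were placed in the same way. Each liver was placed on the line from the vehicle mean (0) to the dexamethasone mean (1) over all 13734 genes, with its own library left out of its group's mean. The desisobutyryl ciclesonide livers stood at 0.076, 0.090, 0.162 and 0.249 for replicates 1 to 4. The vehicle livers stood between -0.009 and 0.138, and the dexamethasone livers between 0.839 and 1.08. Replicates 3 and 4 of desisobutyryl ciclesonide thus lay above every vehicle liver, and no desisobutyryl ciclesonide liver came near a dexamethasone liver. Replicates 1 and 2 lay within the vehicle range on this line only through vehicle replicate 4, at 0.138. They lay above vehicle replicates 1 to 3, the highest of which stood at 0.040. The root mean square difference of log2 CPM between a desisobutyryl ciclesonide and a dexamethasone liver was 1.05 to 1.42 over the 16 pairs. It was 0.495 to 0.641 within desisobutyryl ciclesonide, 0.544 to 0.781 within dexamethasone, 0.457 to 0.622 within vehicle and 0.634 to 0.815 between desisobutyryl ciclesonide and vehicle. Every desisobutyryl ciclesonide liver was thus farther from each vehicle liver than any 2 vehicle livers were from each other. On the first principal component of the 12 livers, with 59.9% of the variance, dexamethasone stood between 73.4 and 103. Desisobutyryl ciclesonide, between -48.0 and -24.8, overlapped vehicle, between -51.9 and -35.1. On the second component, with 10.1% of the variance, desisobutyryl ciclesonide stood between -36.9 and -24.4 and dexamethasone between -2.17 and 6.14. Vehicle stood there between 21.4 and 40.1, and no groups overlapped. The desisobutyryl ciclesonide livers are also the only livers of the B series. The coefficient of variation of a gene between pups, estimated over all genes, was 22.0% with desisobutyryl ciclesonide, 26.6% with dexamethasone and 21.2% with vehicle.

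A smaller set of genes stood apart in the desisobutyryl ciclesonide livers, with vehicle on the side of dexamethasone. Among the 554 genes more than 2-fold lower with desisobutyryl ciclesonide there were 108 such genes (19.5%), and among the 833 higher genes there were 22 (2.64%). The 108 genes took 0.0269%, 0.0300%, 0.0295% and 0.0300% of the counts of desisobutyryl ciclesonide replicates 1 to 4. They took 0.100% to 0.132% in vehicle livers and 0.157% to 0.191% in dexamethasone livers. The desisobutyryl ciclesonide livers were thus close to each other and below every other liver library. The median log2 difference of the 108 genes was -2.88 from dexamethasone and -2.41 from vehicle, while dexamethasone differed from vehicle by a median of 0.48. Most were of low abundance, with a median of 1.36 CPM over the 12 livers. The desisobutyryl ciclesonide values lay below every vehicle and dexamethasone library in 99 of them, against 384 of all 13734 genes tested (2.80%). The 22 higher genes took 0.140% to 0.219% of the counts with desisobutyryl ciclesonide, 0.0614% to 0.0699% with vehicle and 0.0326% to 0.0451% with dexamethasone. These values chose the genes and carry no test. Library series and drug coincide here too.

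The lung libraries, which had no part in that choice, were read for the same genes. In lung the comparison between the drugs called 7966 of the 16108 genes tested (49.5%). Of the 16108 genes 24.4% stood lower with desisobutyryl ciclesonide and 25% higher. Of the 108 liver genes 100 were tested in lung, where 81 were called lower, 0 higher and 19 were not called, with a median log2 difference of -1.90. Of the other 446 genes more than 2-fold lower in liver, for which vehicle stood on the side of desisobutyryl ciclesonide, 401 were tested in lung. There 222 were called lower, 26 higher and 153 were not called, with a median of -0.68. Of the 22 higher genes 16 were tested in lung, where 8 were called higher, 3 lower and 5 were not called, with a median of 0.64. Differences between these shares were not tested. In lung, too, the file names put the desisobutyryl ciclesonide libraries in the B series.

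More of the abundant genes were called, and by the mean over the 12 livers the direction of the calls turned with abundance. That mean includes the dexamethasone livers, so the class of a gene depends in part on its direction. Of the 1196 genes with a mean under 1 CPM over the 12 livers 34.0% were called, of the 6470 genes between 10 and 100 CPM 49.3%, and of the 98 genes at 1000 CPM or more 64.3%. Genes called between 1 and 10 CPM stood higher with desisobutyryl ciclesonide in 1321 cases and lower in 848. Genes called at 1000 CPM or more stood higher in 23 cases and lower in 40. Under RLE factors, upper-quartile factors, total counts, DESeq2 and limma-voom, higher genes were also the more frequent below 10 CPM and lower genes at 1000 CPM or more. These settings change the scaling or the tool and leave the dexamethasone livers in the class mean. Between 10 and 100 CPM, where 46.1% of calls were higher, the majority turned with upper-quartile factors (53.2% higher) and with total counts (66.2% higher). Between 100 and 1000 CPM it turned with total counts alone among these scalings, from 41.1% to 56.7% higher. The precision followed abundance up to 100 CPM: the median half-width of the 95% interval of the log2 difference was 1.17 under 1 CPM, 0.63 between 1 and 10 CPM and 0.33 between 10 and 100 CPM.

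**Figure D3:**
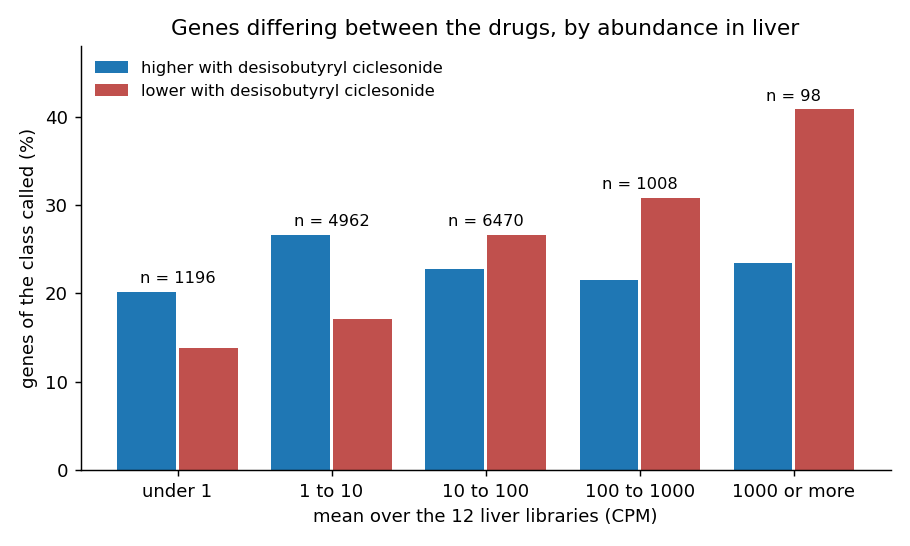
Share of genes called higher (blue) or lower (red) with desisobutyryl ciclesonide than with dexamethasone (%, vertical axis), by the mean of the gene over the 12 liver libraries in CPM. Above each class stands its number of genes. The class mean includes the dexamethasone libraries. Higher calls are the more frequent below 10 CPM and lower calls at 10 CPM and above. With total-count scaling lower calls are the more frequent only at 1000 CPM or more, and with upper-quartile scaling only from 100 CPM.

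The most abundant transcripts of the vehicle livers went both ways. Of the 50 genes with the highest vehicle mean, 17 stood higher with desisobutyryl ciclesonide than with dexamethasone, 17 lower and 16 were not called. The share called was 68%, against 46.3% of all genes tested and 64.3% of the 98 genes at 1000 CPM or more. Their log2 differences ran from -1.33 to 5.29. Together they took 46.4% ± 1.40 (SD, n = 4) of the counts with desisobutyryl ciclesonide, 43.4% ± 1.54 (SD, n = 4) with dexamethasone and 48.2% ± 0.853 (SD, n = 4) with vehicle. Choosing the genes by their vehicle level favours the vehicle share, so these shares are given as a description. Of the 200 genes with the highest vehicle mean, 56 stood higher, 50 lower and 94 were not called. Of the top 10, 3 stood higher, 4 lower and 3 were not called. The lower majority seen at 1000 CPM or more by the mean over the 12 livers was thus absent from the top 50 and the top 200 by vehicle mean. The gene with the most counts was the same in all 12 liver libraries. It took 7.19% to 10.1% of the counts with desisobutyryl ciclesonide and 8.15% to 9.71% with dexamethasone, and these ranges overlapped.

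Genes that mark the liver stood higher with desisobutyryl ciclesonide more often than lower. They were defined as genes whose level in vehicle liver was 16-fold or more that in vehicle lung, 738 in number, a rule also used in earlier work on these data, and all 738 passed the filter on low counts. With desisobutyryl ciclesonide 280 stood higher than with dexamethasone (37.9%, against 23.8% of all genes tested), 143 stood lower (19.4%, against 22.5%) and 315 were not called. Their median log2 difference was 0.28, against 0.00 over all genes tested. Higher genes outnumbered lower ones, and the median stayed above that of all genes, under each of the 22 alternative settings run for this comparison. Against vehicle the median was -0.23 with dexamethasone and 0.07 with desisobutyryl ciclesonide, against -0.02 and -0.01 over all genes tested. The vehicle livers also chose the genes, which favours vehicle in these medians and in the shares that follow. The set took 50.6% ± 2.22 (SD, n = 4) of the counts with desisobutyryl ciclesonide, 46.4% ± 1.22 (SD, n = 4) with dexamethasone and 50.9% ± 0.737 (SD, n = 4) with vehicle. The lowest desisobutyryl ciclesonide library, at 48.5%, lay above the highest dexamethasone library, at 47.5%. In whole liver, fewer cells of a type and less RNA per cell cannot be told apart. Of the 1010 genes that exceeded vehicle liver 16-fold or more in vehicle lung, 219 passed the filter in liver. Of the 219, 45 stood higher (20.5%), 41 lower (18.7%) and 133 were not called. Their median log2 difference was 0.20, also above that of all genes under each of the 22 settings. A median above that of all genes was thus not particular to the liver-enriched set. Without dexamethasone replicate 1 the lung-enriched median was the larger, 0.349 against 0.336. The same held without desisobutyryl ciclesonide replicate 3, 0.326 against 0.303. The 1010 genes took 0.0731% ± 0.0147 (SD, n = 4) of liver counts with desisobutyryl ciclesonide and 0.0780% ± 0.0124 (SD, n = 4) with dexamethasone, and these ranges overlapped.

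The largest differences were genes without a count, or with hardly any, under 1 of the drugs. Genes to be named had to be called, to reach a mean of 2 CPM under 1 of the drugs and to have no overlap between them, which 2457 higher and 2360 lower genes did. The 2 with the largest log2 difference in each direction are given. No function can be given for them without names. ENSRNOG00000067491 had 97, 106, 59 and 58 counts in desisobutyryl ciclesonide replicates 1 to 4 and none in any dexamethasone liver. All 4 vehicle livers held it as well, with 62 to 86 counts. The mean was 4.13 ± 1.53 CPM (SD, n = 4) with desisobutyryl ciclesonide and 4.03 ± 0.522 CPM (SD, n = 4) with vehicle, at least 94.0-fold and 91.8-fold above the floor for dexamethasone, which is 3 counts over the 4 libraries and covers counting error only. The adjusted p between the drugs was 1.52e-06. Desisobutyryl ciclesonide and vehicle overlapped, and no difference between them was called (log2 0.03, SE 0.30, adjusted p = 0.971).

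ENSRNOG00000019660 had 46, 116, 34 and 32 counts in desisobutyryl ciclesonide replicates 1 to 4 and none in any dexamethasone liver. The vehicle livers held 187, 129, 51 and 45. Replicate 2 of desisobutyryl ciclesonide and replicates 1 and 2 of vehicle stood above the rest, and the 2 groups overlapped. The mean of 2.96 ± 2.18 CPM (SD, n = 4) with desisobutyryl ciclesonide was at least 67.4-fold above the dexamethasone floor (adjusted p = 0.000480). Against vehicle, at 5.54 ± 3.68 CPM (SD, n = 4), no difference was called (log2 -0.91, SE 0.58, adjusted p = 0.402).

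ENSRNOG00000011250 showed the converse, with 27, 45, 282 and 242 counts in dexamethasone replicates 1 to 4 and none in any desisobutyryl ciclesonide liver. Dexamethasone replicates 3 and 4, at 12.5 and 13.99 CPM, stood well above replicates 1 and 2, at 1.99 and 3.02 CPM. The dexamethasone mean of 7.88 ± 6.25 CPM (SD, n = 4) was at least 210.1-fold above the floor for desisobutyryl ciclesonide (adjusted p = 0.000140). The vehicle livers held 3 counts in all, which puts dexamethasone 216-fold above them with a 95% exact binomial counting interval of 73.7 to 1052.

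ENSRNOG00000046643 had 803, 1231, 744 and 615 counts in dexamethasone replicates 1 to 4. The desisobutyryl ciclesonide livers had 2, 0, 0 and 3, and the vehicle livers 7, 2, 2 and 4. Every dexamethasone liver thus stood far above every other liver, while desisobutyryl ciclesonide and vehicle lay close to each other. The means were 52.6 ± 23.2 CPM (SD, n = 4) with dexamethasone, 0.0563 ± 0.0652 CPM (SD, n = 4) with desisobutyryl ciclesonide and 0.203 ± 0.131 CPM (SD, n = 4) with vehicle. The log2 difference between the drugs was -9.57 (SE 0.53, adjusted p = 1.41e-07). Desisobutyryl ciclesonide against vehicle was not called (log2 -1.60, SE 0.96, adjusted p = 0.362).

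**Figure D4:**
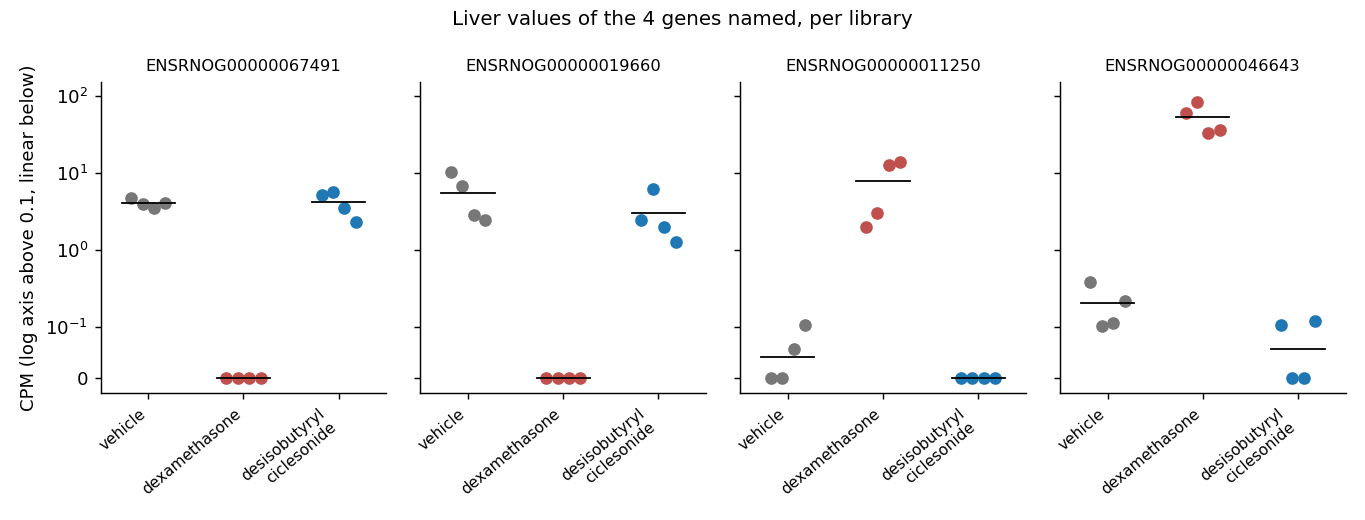
CPM (vertical axis, logarithmic above 0.1 and linear below) of the 4 genes named, in each of the 12 liver libraries, with the group mean as a line. The first 2 genes are at 0 in all 4 dexamethasone livers, and the last 2 are at or near 0 with desisobutyryl ciclesonide and between 1.99 and 82.7 CPM with dexamethasone.

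Before filtering on low counts, 1598 of the 30560 genes had no count in the 4 dexamethasone livers and at least 1 with desisobutyryl ciclesonide. Of these, 101 were counted in every desisobutyryl ciclesonide liver. Conversely, 958 genes had no count in the 4 desisobutyryl ciclesonide livers and at least 1 with dexamethasone. Of the 958, 55 were counted in every dexamethasone liver. Only 15 of the 1598 and 2 of the 958 passed the filter, of which 14 and 2 were called. The rest were too low in counts to be tested. The highest total over the 4 livers of the other drug was 320 counts among the 1598 genes and 596 among the 958, reached by ENSRNOG00000067491 and ENSRNOG00000011250.

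For 7376 genes no difference between the drugs was called, which does not show that the drugs acted alike on them. The 95% interval of the log2 difference lay within a 2-fold change either way for 5191 of these genes (70.4%) and within 1.5-fold for 2853 (38.7%). The median half-width of the interval was 0.43. A total of 964 of the 7376 had an unadjusted p under 0.05.

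The liver difference between the drugs was then set against the lung difference, tested as the liver difference less the lung difference in all 24 libraries. In each tissue 13245 genes passed the filter, of which 3961 (29.9%) differed, 1965 of them more positive in liver and 1996 more negative. With total gene counts and no factors the split was 2757 and 1272. Of the 6080 liver calls among these genes 2584 (42.5%) differed from lung. The drugs differed in the same direction in both tissues in 3215 genes, 52.9% of the liver calls and 46.5% of the 6919 lung calls, and in opposite directions in 482 genes, 7.93% and 6.97%. The 2 tissues share no library, but liver and lung libraries of the same number moved together around their means.

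**Figure D5:**
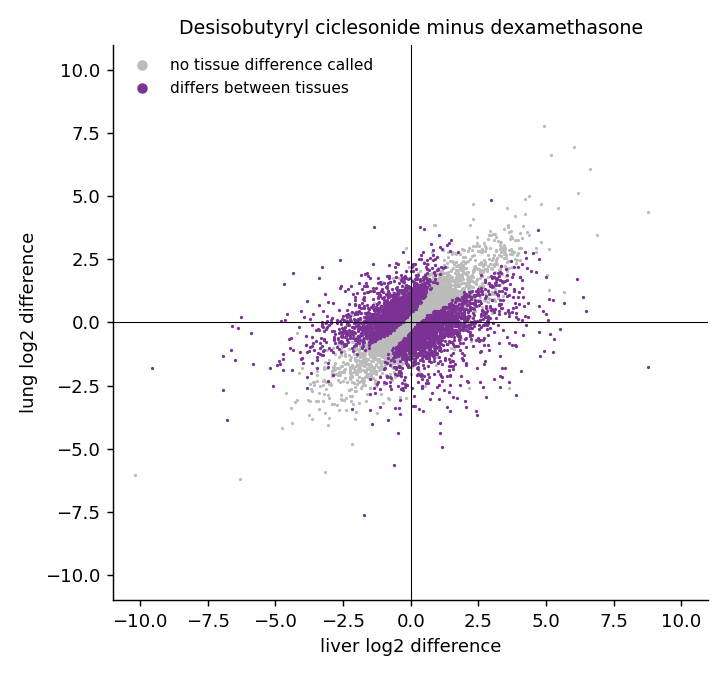
Log2 difference, desisobutyryl ciclesonide minus dexamethasone, in liver (horizontal axis) and lung (vertical axis) for the 13245 genes tested in both tissues. Purple points are the 3961 genes whose difference is not the same in the 2 tissues by the test across 24 libraries, and grey points are the rest.

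Of the genes named above, ENSRNOG00000046643 differed between the tissues. In lung it stood at 11.7 to 13.5 CPM with dexamethasone, 1.69 to 5.40 CPM with desisobutyryl ciclesonide and 0.703 to 1.502 CPM with vehicle, scaled within lung. The lung log2 difference between the drugs was -1.81 (SE 0.31, adjusted p = 0.000400), and the liver difference was lower by 7.81 on the log2 scale (liver minus lung -7.81, SE 0.65, adjusted p = 4.50e-08). ENSRNOG00000011250 stood at 5.16 to 15.4 CPM with dexamethasone in lung and at 0 to 0.6003 CPM with desisobutyryl ciclesonide, and ENSRNOG00000019660 at 0 to 0.141 and 0.133 to 2.63 CPM. Both differed between the drugs in lung in the liver direction (adjusted p = 2.60e-05 and 0.00117). For neither was a tissue difference called. Liver minus lung was -5.06 on the log2 scale (SE 2.48, adjusted p = 0.132) for ENSRNOG00000011250. For ENSRNOG00000019660 it was 5.33 (SE 2.93, adjusted p = 0.181). With SEs this wide the test could not tell whether the tissues were alike. ENSRNOG00000067491 did not pass the filter in lung, where dexamethasone replicates 3 and 4 held 20 and 54 counts and each of the other 10 libraries at most 8.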

How the data were processed

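Poly(A) RNA libraries that keep the strand were made from snap-frozen tissue extracted with Trizol, per the labels' protocols. The submitters' processing notes name cutadapt, HISAT2 and HTSeq and the build mRatBN7.2, with no versions. The authors deposited raw counts per Ensembl gene for each library. The strand setting of the counting is not known, and overlapping or near-identical genes may share reads. HTSeq's summary rows, 16.8% to 22.8% of the entries of the 8 drug-treated livers, were left out of library sizes and tests.

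The 12 liver libraries were fitted together in edgeR 4.0.16 (R 4.3.3) with 1 mean per treatment, TMM factors, filterByExpr and the robust quasi-likelihood F-test, and p-values were adjusted by Benjamini-Hochberg over all genes tested, with a threshold of 0.05. Differences beyond 2-fold were tested with glmTreat. Log2 CPM used a prior count of 2. The lung libraries were fitted in the same way, and the liver difference less the lung difference was tested over all 24 libraries. Between the tissues same-numbered libraries deviated together (r = 0.114 to 0.316 across genes, 12 pairs), so a fit with the number as a block was also run. Genes were named by the 2 largest log2 differences in each direction, among called genes whose mean reached 2 CPM under 1 drug and whose drug groups did not overlap. The fit was run on simulated data in which far fewer genes changed than were called here, so that run does not test the scaling. No 2 replicates were alike within sampling noise: the lowest chi-square per degree of freedom among 36 pairs was 11.0.

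DESeq2 1.42.0, limma-voom (limma 3.58.1), other scalings and filters, a replicate block and leaving out each library were tried as alternatives. The comparison, the gene lists and the rule for tissue-enriched genes were chosen with earlier results of these data known.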

Additional observations from a re-analysis of the deposited data

Results flagged for a closer look

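The drug difference was not the same in liver and lung for 3961 genes by the test across 24 libraries. ENSRNOG00000046643 was among them, with a liver minus lung difference of -7.81 on the log2 scale.

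In groups of 4, a library at one end was set apart from the other 3 by more than Dixon's 95% critical value in 5 of the 60 groups of values checked, where chance gives about 1 in 20. Desisobutyryl ciclesonide replicate 4 had the most gene counts of its group, 26194384. The same library had the lowest share of counts in the genes called higher with that drug, 23.97%, still above every dexamethasone liver. Dexamethasone replicate 2 had the highest share of counts in the genes called lower with desisobutyryl ciclesonide, 51.1%. Vehicle liver replicate 2 had the highest share of reads counted as ambiguous in its group, 3.00%. Vehicle lung replicate 3 had the highest level of ENSRNOG00000067491 in its group, 0.402 CPM.

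Reads outside the gene counts also differed from vehicle. In dexamethasone livers 11.5% ± 0.256 (SD, n = 4) of the entries were reads outside any gene, against 10.48% ± 0.399 (SD, n = 4) in vehicle livers, and 3.28% ± 0.295 (SD, n = 4) were ambiguous between genes, against 2.77% ± 0.152 (SD, n = 4). In desisobutyryl ciclesonide livers 3.68% ± 0.294 (SD, n = 4) had no unique alignment, against 3.09% ± 0.0726 (SD, n = 4) in vehicle livers. In these 3 cases the 4 drug libraries lay above the 4 vehicle libraries. In 3 others they lay below: reads outside any gene with desisobutyryl ciclesonide (6.70% to 8.10%, against 9.97% to 10.9% with vehicle), unaligned reads with desisobutyryl ciclesonide (0.801% to 1.40%, against 2.04% to 3.32%) and reads without a unique alignment with dexamethasone (2.43% to 2.84%, against 3.03% to 3.18%).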

How the results depend on the processing

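Genes called between the drugs in liver numbered 5885 to 6962 over the 10 other settings and 5649 to 6496 over the 12 fits without 1 library, and no gene called in any of these fits took the direction opposite to that reported. Of the 6358 calls, 83.5% were shared with total counts and 86.0% to 99.4% with the others. Calls beyond 2-fold numbered 1370 to 1518 over 5 settings and 1225 to 1472 without 1 library. Dexamethasone against vehicle gave 5986 to 7160 and 5826 to 6568 calls. Desisobutyryl ciclesonide against vehicle gave 1154 calls with DESeq2 and 295 to 836 without 1 library. The liver minus lung test gave 3572 to 4475 and 3472 to 4026 calls. The 4 genes named passed in all 22 alternatives, with highest adjusted p-values of 7.77e-05, 0.00176, 0.00384 and 1.20e-05 in the order given above.

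With the replicate block 6021 genes were called between the drugs, 1370 beyond 2-fold, 6177 for dexamethasone and 442 for desisobutyryl ciclesonide against vehicle. Same-numbered liver libraries of the 2 drugs did not deviate together (r = -0.04 to 0.05 over 4 pairs, none best with its own number), so they share only a number. With the number as a block across tissues 4475 genes differed between liver and lung, within 1.5 times of the count without it. A Y-linked covariate and the gene lists were not run, since identifiers could not be paired with names. Without a value per library series, series and drug cannot be told apart. Below 1 CPM the precision limits what could be called.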
